A study of Sus scrofa with 61 samples.

Results

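The genes described here encode the proteins of the mitochondrial ribosome and of the machinery that imports proteins into mitochondria, followed in porcine liver at 4 stages of development. They were taken from the array annotation as every gene whose single symbol begins with MRPL, MRPS, TIMM or TOMM, and a gene with several probe-sets was represented by the one with the highest mean log2 signal over all arrays. This gave 76 of the 6765 genes named by 1 symbol on the array. Of these, 36 were MRPL genes (named for the large mitoribosomal subunit), 22 MRPS genes (named for the small subunit), 11 TIMM genes (translocases and chaperones of the inner membrane and intermembrane space) and 7 TOMM genes (outer membrane). Families go by the symbol, and all MRPL and MRPS genes are called mitoribosomal or ribosomal here. The symbols of MRPS30 and MRPS36 do not match the place of their proteins, as given below. The rule on symbols uses no measured value, and expression entered only the choice of a probe-set in the 17 genes that had more than 1. These families were, however, picked for description with earlier results of these data known.

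The liver samples came from German Landrace offspring whose mothers received a low protein (LP) diet in gestation. Individual livers were hybridised to the Affymetrix porcine genome array at 94 days post conception (dpc, a late fetal stage, 16 arrays) and at 1, 28 and 188 days post natum (dpn, the newborn, weaning and finishing stages, with 14, 15 and 16 arrays). Every group therefore shared breed, maternal diet and organ, and only the stage differed by the labels. Offspring of animals fed the adequate protein diet are not analysed here, so nothing below compares diets. The fetuses were obtained by Caesarean section in an experiment of their own, whereas the older animals were farrowed, so that no comparison with the fetal stage can tell the stage from the experiment. The animals killed at 28 and 188 dpn had fasted overnight and had been nursed by foster sows, and sib pairs from 8 litters were used at each stage. Littermates were chosen to differ in weight at 94 dpc and 1 dpn, but not at the later stages. Sex, litter and weight are not in the labels, so littermates entered the tests as independent animals and the p-values are smaller than they should be if littermates resemble each other. All animals are different individuals, and no animal was followed over time. Adjacent periods share the arrays of the stage between them, so a low or high level at 1 or 28 dpn enters both of its periods with opposite sign.

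Mitochondria keep a small genome that encodes a few hydrophobic subunits of the respiratory chain, and these are made inside the organelle by the mitochondrial ribosome, whose proteins are all encoded in the nucleus. The remaining mitochondrial proteins are made in the cytosol and enter through the TOM complex of the outer membrane. From there, precursors with a presequence pass through the TIM23 complex into the matrix, whereas carriers of the inner membrane are escorted by the small TIM chaperones to the TIM22 complex. The mammalian liver is rich in mitochondria, and its respiratory capacity is known to increase around birth.

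The deposited signal is a linear fluorescence intensity whose trimmed mean was between 500.1 and 500.2 on every array. While that mean was held, the median signal of an array fell from 167 at 94 dpc to 150 at 1 dpn, 118 at 28 dpn and 102 at 188 dpn, and the median log2 change of all probe-sets tested was -0.16 in period I (1 dpn minus 94 dpc), -0.14 in period II (28 dpn minus 1 dpn), -0.14 in period III (188 dpn minus 28 dpn) and -0.43 over the whole course (188 dpn minus 94 dpc). Changes of the genes below are log2 differences of the signal as deposited, and the results that depend on this choice of scale are named beside them. Hepatocyte markers were bright at every stage, with the summed signal of 9 markers between 280209 and 601024 on all arrays. In period I 3 were called higher and 1 lower of 7 tested (33.9% and 35.4% of all named genes tested). In period II these were 1 and 5 of 7 (33.1% and 39.1%). With array medians subtracted they were 5 and 0 of 8 (41.8% and 26.2%) and 2 and 2 of 4 (54.5% and 19.2%). Quantile normalization gave 1 and 0 of 2 (37.8% and 29.7%) and 1 and 1 of 2 (38.0% and 34.0%). Over the whole course 1 was higher and 6 lower of 8 (36.8% and 48.0% of all named genes tested). With array medians subtracted 8 were higher and 1 lower of 9 over the whole course (60.6% and 24.9% of all named genes tested). The differences between 3' and 5' control probe-sets, a measure of RNA integrity, were outlying on 9 of the 61 arrays and moved with the stage. Their means at 94 dpc, 1, 28 and 188 dpn were 2.27, 1.78, 3.94 and 4.03 (log2) for beta-actin, 1.05, 0.39, 0.79 and 0.64 for GAPDH, and -0.02, -0.14, 0.39 and 0.56 for EF1A, and their part in the changes below was not tested. In whole liver, fewer cells of a type and less RNA per cell cannot be told apart.

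The distance between the highest and lowest stage mean of a gene had a median of 0.73 on the log2 scale over the 76 genes, against 1.02 for all named genes. The lowest stage mean fell at 94 dpc in 41 of the 76 genes (53.9%, against 27.3% of all named genes), and the highest fell at 188 dpn in 32 genes (42.1%, against 22.4%) and at 1 dpn in 23 (30.3%, near the 26.7% of all named genes). The median over the 58 mitoribosomal genes on an array averaged 9.97 ± 0.09 (SD, n = 16) at 94 dpc, 10.47 ± 0.17 (n = 14) at 1 dpn, 10.46 ± 0.10 (n = 15) at 28 dpn and 10.51 ± 0.11 (n = 16) at 188 dpn. The highest fetal array reached 10.10 and the lowest newborn array 10.11, so that the fetal arrays lay apart from all later ones while the postnatal stages overlapped throughout. The same median over the 18 TIMM and TOMM genes was 9.90 ± 0.13, 10.50 ± 0.25, 10.49 ± 0.14 and 10.73 ± 0.25 at the 4 stages.

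**Figure D1:**
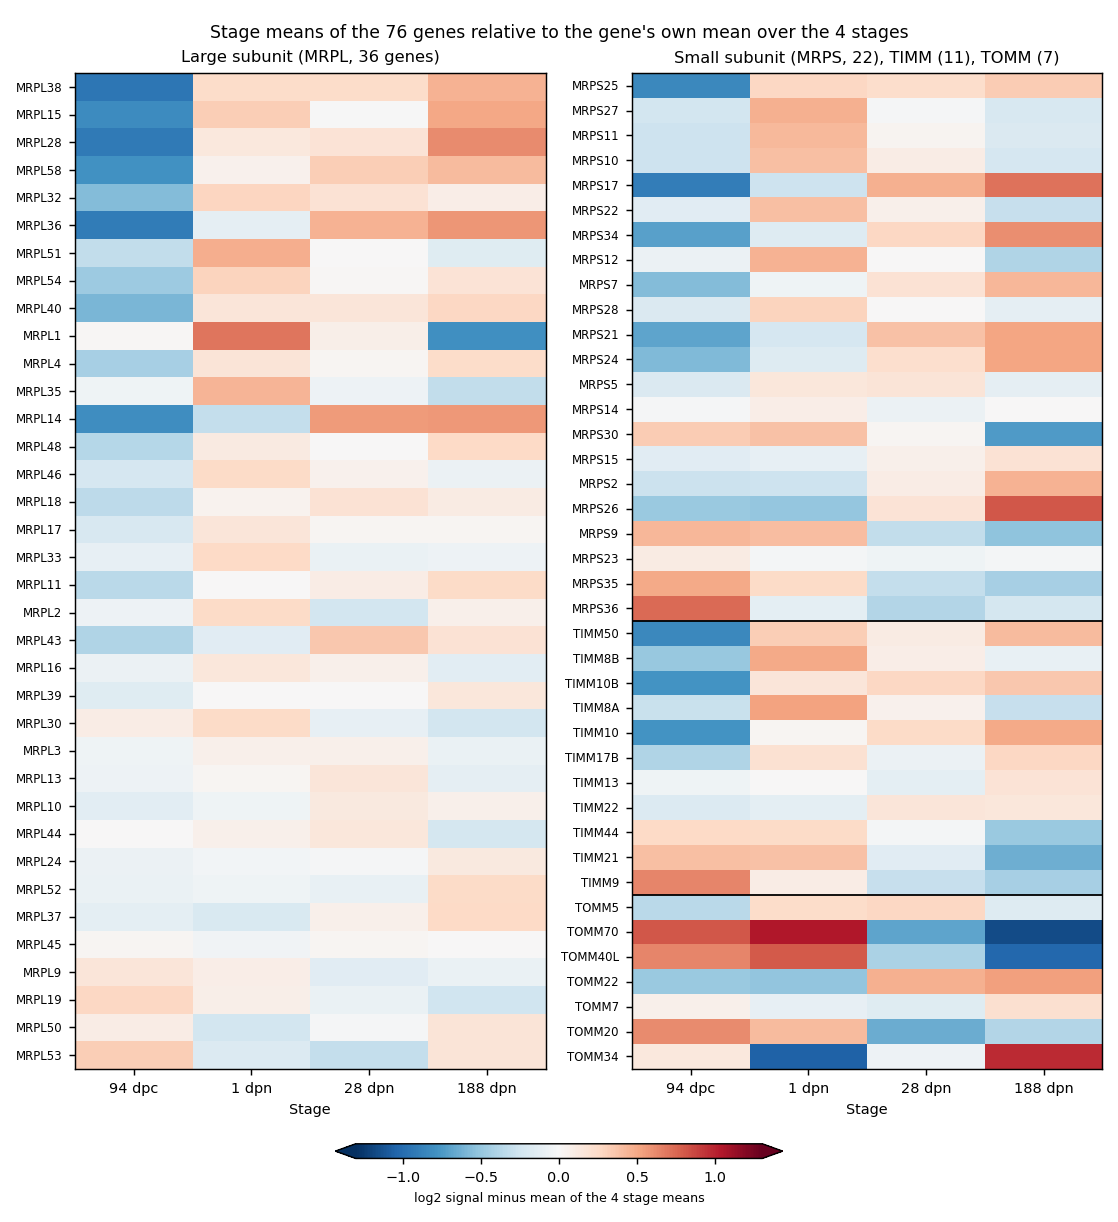
Heat map of the mean log2 signal of each of the 76 genes at the 4 stages (columns), relative to the mean of the gene's own 4 stage means, with red above and blue below that mean. Within each family, genes are ordered by their change from 94 dpc to 1 dpn. The fetal column is the lowest of the 4 in 41 genes, and TOMM70, TOMM40L and TOMM34 carry the widest swings.

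Period I, the step from fetal to newborn liver, brought mostly rises. Of the 76 genes, 63 passed the filters on level and spread and were tested with limma, and a gene was called when both its P and its Storey q value were at or below 0.05. There were 41 genes called higher at 1 dpn and 6 called lower. These are 65.1% and 9.52% of the genes tested, against 33.9% and 35.4% of all named genes tested. In 8 genes every newborn array lay above every fetal array, and no gene showed the reverse (background 5.79% and 4.26%). The median change of all 76 genes was 0.35, against -0.01 for all named genes, tested or not. All 3 scales agree in direction here, with 44 genes called higher and 5 lower after quantile normalization (background 37.8% and 29.7%), and 48 and 4 after subtraction of the array median (background 41.8% and 26.2%).

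The MRPL genes contributed 21 rises and 2 falls among 29 tested, and the MRPS genes 13 rises and 2 falls among 19. MRPL38, a subunit without a bacterial counterpart, had lowest, median and highest signals of 854, 1071 and 1397 at 94 dpc, 1516, 2412 and 3393 at 1 dpn, 1965, 2372 and 3144 at 28 dpn, and 1714, 2819 and 3956 at 188 dpn. It rose by 1.18 (SE 0.09, q = 3.66e-13) in period I, every newborn array lay above every fetal one, and the medians of the later stages stayed within the newborn range. MRPL15, whose bacterial homologue belongs to the core of the large subunit, had signals of 814, 1003 and 1161 at 94 dpc, 1414, 2214 and 3109 at 1 dpn, 1383, 1689 and 2491 at 28 dpn, and 1546, 2491 and 3389 at 188 dpn, and rose by 1.14 (SE 0.08, q = 9.57e-14). Its fetal arrays were the lowest of all stages without overlap. MRPL28 rose by 1.05 (SE 0.11, q = 5.07e-10) and MRPL4 by 0.60 (SE 0.08, q = 1.02e-08), both again without overlap.

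MRPL58, formerly ICT1, is a peptidyl-tRNA hydrolase that frees stalled mitoribosomes and is also a part of the large subunit. It rose by 0.85 (SE 0.10, q = 1.33e-09), from a median signal of 617 at 94 dpc to 1154 at 1 dpn. MRPL32, which must be cleaved in the matrix before it can be built into the subunit, rose by 0.84 (SE 0.11, q = 1.05e-08), whereas its other probe-set changed by 0.07 and was not called. Among the MRPS genes the largest rise was that of MRPS25, by 1.11 (SE 0.10, q = 1.18e-11). Its signals were 675, 1011 and 1182 at 94 dpc, 1438, 2039 and 3132 at 1 dpn, 1534, 2057 and 2645 at 28 dpn, and 1485, 2162 and 3163 at 188 dpn. MRPS27, a pentatricopeptide repeat protein, rose by 0.70 (SE 0.10, q = 3.96e-08), and it too showed no overlap between fetal and newborn arrays. MRPS12, the homologue of a bacterial decoding centre protein, is covered by 3 probe-sets, which rose by 0.53, 1.19 and 1.60.

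The 4 mitoribosomal falls of period I were smaller or rested on weak signals. MRPL53 changed by -0.49 (SE 0.11, q = 7.93e-05), MRPL50 by -0.34 (SE 0.14, q = 0.00823) and MRPS35 by -0.24 (SE 0.10, q = 0.00734). The last 2 of these were no longer called after quantile normalization or subtraction of the array median. MRPS36 changed by -0.86 (SE 0.15, q = 1.3e-06), but its signal exceeded the median of its array on only 5 of the 14 newborn arrays. MRPS36, now also named KGD4, is recognised as a component of the alpha-ketoglutarate dehydrogenase complex and not of the ribosome.

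**Figure D2:**
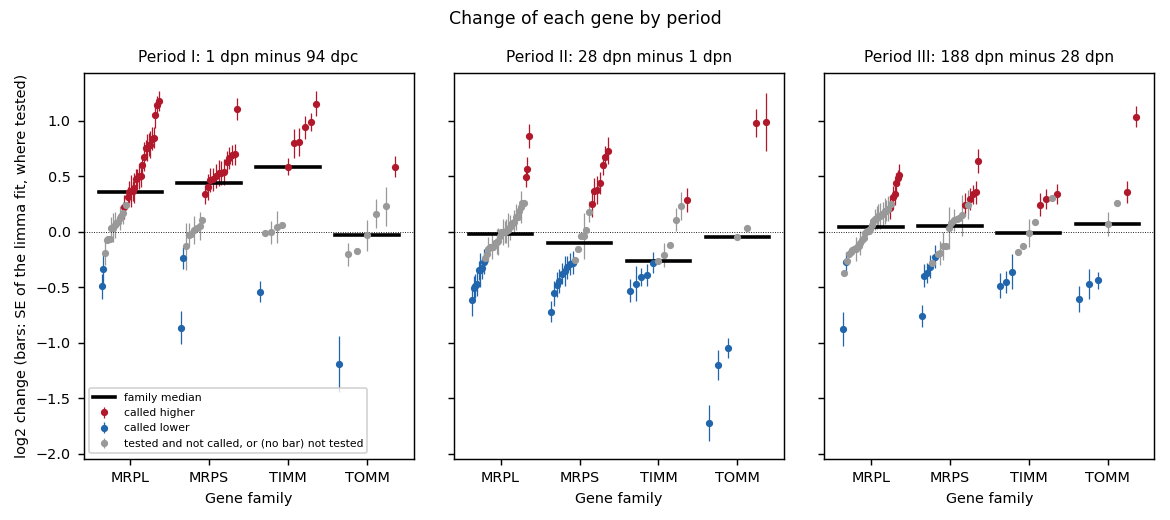
Log2 change of each gene (points) in periods I, II and III, by family, with bars giving the standard error of the limma fit where the gene was tested and black lines the family median over all members. Most MRPL, MRPS and TIMM genes lie above 0 in period I, whereas the TOMM family spreads from -1.73 to 0.99 in period II.

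In period II, between birth and weaning, rises and falls were mixed. Of 55 tested, 13 were called higher and 25 lower, that is 23.6% and 45.5%, against 33.1% and 39.1% of all named genes tested. The median change of the 76 genes was -0.09, against -0.12 for all named genes, tested or not. The split rested on the scale. Quantile normalization gave 14 higher and 22 lower (background 38.0% and 34.0%). Subtraction of the array median gave 38 higher and 4 lower (90.5% of calls higher in place of 34.2%), and on that scale 54.5% of all named genes tested were called higher and 19.2% lower. Only the falls of TOMM70, TOMM40L, TOMM20 and MRPS9 were called on all 3 scales.

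A set of ribosomal proteins rose in this period on every scale. MRPL14 had signals of 1004, 1464 and 1771 at 94 dpc, 1406, 1903 and 3065 at 1 dpn, 3032, 3536 and 4526 at 28 dpn, and 2516, 3668 and 4786 at 188 dpn. It rose by 0.87 (SE 0.11, q = 7.53e-09), and its fetal arrays lay below all arrays of 28 and 188 dpn. MRPS17 rose by 0.73 (SE 0.12, q = 8.28e-07), MRPS26 by 0.67 (SE 0.10, q = 1.71e-07), MRPS21 by 0.60 (SE 0.09, q = 1.09e-07) and MRPL36, a small zinc-binding protein, by 0.57 (SE 0.11, q = 4.55e-06). These rises were larger after subtraction of the array median. MRPS26 had changed by only -0.02 in period I, where it varied too little to be tested.

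Of the falls, MRPS9, a small subunit protein with a bacterial homologue, had signals of 501, 838 and 992 at 94 dpc, 554, 798 and 980 at 1 dpn, 355, 477 and 547 at 28 dpn, and 288, 407 and 606 at 188 dpn. It fell by 0.72 (SE 0.09, q = 1.62e-08), and no array of 28 dpn reached the lowest of 1 dpn. In 2 genes of the 76 the arrays of 28 dpn all lay below those of 1 dpn, MRPS9 and TOMM20, and none showed the reverse (background 5.01% and 5.64%). MRPL1, the homologue of the bacterial stalk protein L1, fell by 0.62 (SE 0.14, q = 5.68e-05), MRPS35 changed by -0.56 (SE 0.11, q = 1.1e-05), MRPL35 by -0.51 (SE 0.11, q = 2.21e-05), MRPL2 by -0.49 (SE 0.11, q = 3.93e-05) and MRPS27 by -0.48 (SE 0.11, q = 7.86e-05). These 5 falls were no longer called after subtraction of the array median, where they came to -0.27, -0.21, -0.16, -0.14 and -0.13.

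Period III, from weaning to 188 dpn, had the fewest calls. Of 47 genes tested, 16 were called higher (34.0%) and 13 lower (27.7%), against 21.6% and 39.0% of all named genes tested. The median change of the 76 genes was 0.05, against -0.09 for all named genes, tested or not. Subtraction of the array median gave 34 higher and 9 lower (79.1% of calls higher in place of 55.2%), with 34.8% of all named genes tested called higher and 22.7% lower. In 1 gene, TOMM34, the arrays of the later stage all lay above those of the earlier one, and in none below (background 0.796% and 1.15%). MRPS26 rose by a further 0.64 (SE 0.11, q = 4.86e-06), MRPL15 by 0.52 (SE 0.10, q = 1.91e-05), MRPL53 by 0.48 (SE 0.07, q = 1.04e-06) and MRPL28 by 0.44 (SE 0.09, q = 5.13e-05), with the rise of MRPL53 no longer called after quantile normalization. MRPL1 had signals of 490, 739 and 1061 at 94 dpc, 688, 1123 and 1835 at 1 dpn, 498, 748 and 1267 at 28 dpn, and 217, 411 and 913 at 188 dpn, and changed by -0.88 (SE 0.15, q = 7.73e-06) in period III. Its highest level among the stages was at 1 dpn and its lowest at 188 dpn. MRPS30, a protein since placed in the large subunit despite its name, had signals of 441, 614 and 787 at 94 dpc, 267, 682 and 829 at 1 dpn, 338, 506 and 682 at 28 dpn, and 229, 287 and 397 at 188 dpn and changed by -0.76 (SE 0.10, q = 6.82e-08). The falls of MRPL1 and MRPS30 were called on all 3 scales.

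Over the whole course, which shares its arrays with periods I and III, 35 of 59 genes tested were called higher at 188 dpn and 15 lower (59.3% and 25.4%), against 36.8% and 48.0% of all named genes tested. The groups did not overlap in 16 genes that were higher and 5 that were lower (background 13.2% and 16.3%). The median change was 0.19, or 0.62 above that of all probe-sets tested. Subtraction of the array median gave 64 higher and 8 lower (88.9% of calls higher in place of 70.0%), with 60.6% of all named genes tested called higher and 24.9% lower, and quantile normalization 38 and 13 (background 47.0% and 38.4%). The ribosomal proteins with the largest rises were MRPS17 with 1.61 (SE 0.10, q = 1.48e-16), MRPL28 with 1.53 (SE 0.09, q = 3.75e-17), MRPL36 with 1.48 (SE 0.11, q = 8.13e-15), MRPL38 with 1.39 (SE 0.09, q = 2.56e-16), MRPL14 with 1.38 (SE 0.09, q = 3.64e-16) and MRPL15 with 1.33 (SE 0.09, q = 1.4e-16). MRPS17 had signals of 802, 985 and 1284 at 94 dpc, 1050, 1607 and 1949 at 1 dpn, 1881, 2310 and 3659 at 28 dpn, and 1832, 3182 and 4150 at 188 dpn, so that the median at 188 dpn was more than 3 times that at 94 dpc.

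Against these rises, 9 of the 43 ribosomal genes tested were called lower over the whole course (20.9%, against 48.0% of all named genes tested). Of the 58 ribosomal genes, 7 had their highest stage mean at 94 dpc (12.1%, against 35.9% of all named genes). Another 19 had it at 1 dpn (32.8%, against 26.7%). MRPS30 changed by -1.06 (SE 0.09, q = 7.56e-14) with no overlap, MRPS9 by -0.95 (SE 0.10, q = 1.04e-11) and MRPS35 by -0.92 (SE 0.12, q = 9.47e-10), and these 3 falls were called on all 3 scales, although with array medians subtracted they came to only -0.41, -0.30 and -0.27. The change of MRPL1 was -0.82 (SE 0.15, q = 4.86e-07), and -0.16 without a call after subtraction of the array median. Some members hardly moved on the deposited scale. The stage means of MRPL45, which holds the mitoribosome at the inner membrane, spanned 0.07 on the log2 scale, those of MRPL3 0.15 and those of MRPS14 0.16. After subtraction of the array median these genes were called higher over the whole course, by 0.64, 0.62 and 0.67. MRPL3 is read by more than 1 probe-set, and another of them changed by -0.96 over the course, so the flat course of that gene holds for 1 probe-set.

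Of the 7 TOMM genes, 6 were tested in period I, and 1 was called higher and 1 lower, against 33.9% and 35.4% of all named genes tested. Quantile normalization gave 3 higher and 2 lower of 6, and subtraction of the array median 3 and 1, so the count rested on the scale, and a difference from the other families was not tested. In period II the 3 surface receptors of the TOM complex, which bind precursors before they reach the pore, changed in opposite directions. TOMM20, the receptor for presequences, had signals of 3132, 4419 and 5885 at 94 dpc, 2475, 3999 and 4913 at 1 dpn, 1477, 1864 and 2276 at 28 dpn, and 1550, 2339 and 2741 at 188 dpn. It fell by 1.05 (SE 0.09, q = 6.62e-12), and at 28 dpn all arrays lay below the lowest newborn array. TOMM70, the receptor that takes carrier precursors from cytosolic chaperones, had signals of 280, 475 and 687 at 94 dpc, 192, 582 and 828 at 1 dpn, 110, 171 and 217 at 28 dpn, and 74.9, 116 and 193 at 188 dpn. It fell by 1.73 (SE 0.16, q = 2.18e-11) and again by 0.47 in period III (SE 0.14, q = 0.00134), which left the arrays of 188 dpn all below the fetal ones. At 28 and 188 dpn TOMM70 exceeded the median of its array on 13 of 15 and 9 of 16 arrays, so its lowest levels lie near the middle of the array's range, and with the array median as a floor the falls of periods II and III were -1.71 and -0.40. With the filter on level at the 60th percentile TOMM70 was no longer tested in period III.

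TOMM22, the receptor that also organises the TOM pores, had signals of 733, 1351 and 2401 at 94 dpc, 864, 1299 and 2054 at 1 dpn, 1895, 2363 and 3723 at 28 dpn, and 1852, 2835 and 3193 at 188 dpn. It rose by 0.98 (SE 0.13, q = 1.21e-08), with 1 newborn array inside the range of 28 dpn. After subtraction of the array median the 3 receptors changed by -0.70 (TOMM20), -1.38 (TOMM70) and 1.33 (TOMM22), and all 3 stayed called. TOMM40L, a paralogue of the pore-forming TOMM40, had signals of 358, 560 and 797 at 94 dpc, 350, 699 and 867 at 1 dpn, 212, 259 and 413 at 28 dpn, and 101, 193 and 240 at 188 dpn. Like TOMM70 it was highest at 1 dpn, fell by 1.20 (SE 0.14, q = 1.02e-09) and changed by -0.61 (SE 0.12, q = 2.96e-05) in period III, and its adult arrays lay below all fetal arrays.

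TOMM34, a cytosolic cochaperone of Hsp70 and Hsp90 that binds precursors on their way to the pore, was lowest at 1 dpn. Its signals were 232, 335 and 412 at 94 dpc, 38, 149 and 390 at 1 dpn, 209, 296 and 351 at 28 dpn, and 429, 568 and 765 at 188 dpn. The change was -1.19 (SE 0.25, q = 2.94e-05) in period I, 0.99 (SE 0.26, q = 0.000236) in period II and 1.04 (SE 0.10, q = 1.68e-10) in period III. The newborn arrays were widely scattered and exceeded the array median on only 7 of 14, and with the array median as a floor the first 2 changes shrank to -0.73 and 0.53 and stayed called. TOMM5 and TOMM7 are small subunits of the TOM complex. TOMM5 rose by 0.59 (SE 0.10, q = 6.88e-07) in period I and changed by -0.44 (SE 0.08, q = 6.32e-06) in period III, with signals of 1601, 2378 and 3122 at 94 dpc, 2856, 3276 and 5005 at 1 dpn, 3103, 3707 and 4423 at 28 dpn, and 2227, 2655 and 3352 at 188 dpn. TOMM7 ranged from a median signal of 3885 at 28 dpn to 4931 at 188 dpn, and its rise of 0.36 (SE 0.10, q = 0.000934) in period III was not called after quantile normalization.

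**Figure D3:**
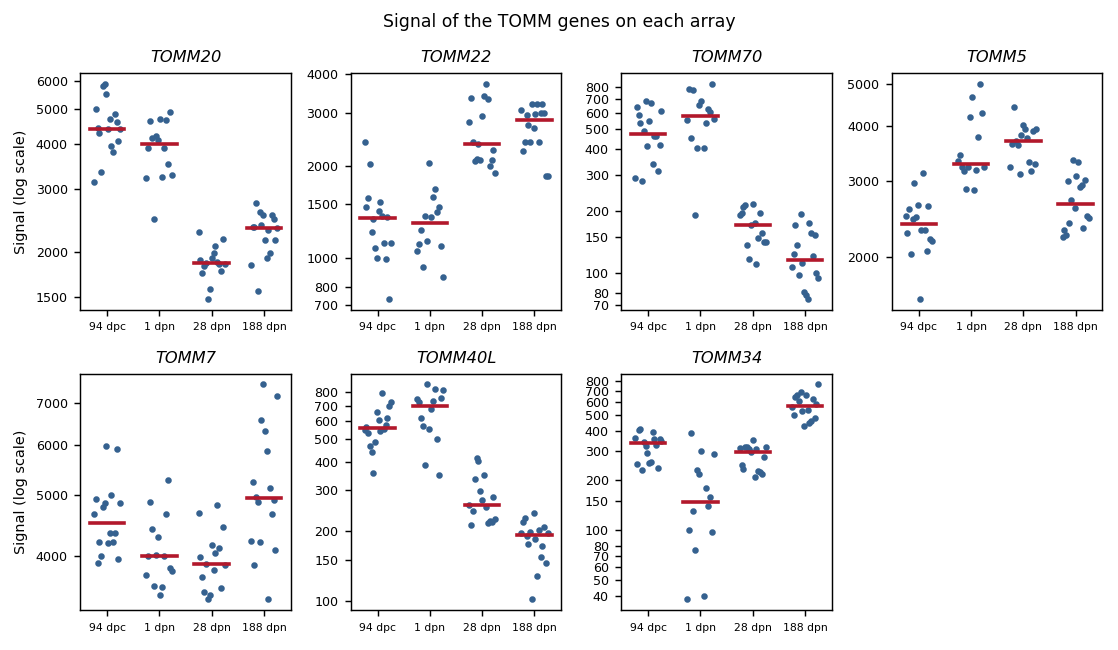
Signal of the 7 TOMM genes on each of the 61 arrays (points, logarithmic axis) at the 4 stages, with red lines at the stage median. TOMM20, TOMM70 and TOMM40L step down between 1 and 28 dpn while TOMM22 steps up, and TOMM34 scatters from 38 to 390 at 1 dpn.

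Among the 11 TIMM genes, 6 of 9 tested rose and 1 fell in period I, against 33.9% and 35.4% of all named genes tested, and the same counts rose and fell on both other scales. In period II 1 rose and 5 fell of 9 tested (background 33.1% and 39.1%), with 4 rises and no fall after subtraction of the array median. TIMM50, the receptor of the TIM23 complex that receives presequences as they leave the outer membrane, had signals of 568, 750 and 1150 at 94 dpc, 1160, 1740 and 2336 at 1 dpn, 1166, 1463 and 1796 at 28 dpn, and 1111, 1816 and 2253 at 188 dpn. It rose by 1.15 (SE 0.11, q = 6.58e-11), with the lowest newborn array just above the highest fetal one, and its other probe-set rose by 1.29. TIMM17B, a channel subunit of the same complex, rose by 0.59 (SE 0.08, q = 2.53e-08) in period I and by 0.34 (SE 0.09, q = 0.000596) in period III. TIMM21 and TIMM44 took another course. TIMM21, which links TIM23 to the TOM complex and to respiratory chain assembly, had a change of -0.01 in period I, where it varied too little to be tested. Its signals were 480, 767 and 895 at 94 dpc, 557, 727 and 951 at 1 dpn, 359, 510 and 730 at 28 dpn, and 263, 354 and 514 at 188 dpn. It changed by -0.53 (SE 0.10, q = 5.62e-06) and -0.49 (SE 0.11, q = 0.000149) in periods II and III. The first of these falls, but not the second, was lost after subtraction of the array median. TIMM44, which anchors the matrix import motor, changed by -0.45 (SE 0.10, q = 0.00011) in period III and by -0.73 (SE 0.10, q = 8.15e-09) over the whole course. The change of the whole course was no longer called on either other scale (-0.08 with array medians subtracted), and neither was called when the 3 probe-sets of TIMM44 were averaged, although the changes were of like size (-0.47 and -0.72). Another probe-set was called lower over the whole course as well (-0.68, q = 0.000341).

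The small TIM proteins form chaperone rings of the intermembrane space, in which TIMM9 pairs with TIMM10, and TIMM8A with TIMM13. TIMM8B, a homologue of TIMM8A, had signals of 4151, 5095 and 6016 at 94 dpc, 6978, 9904 and 12982 at 1 dpn, 6374, 7551 and 8564 at 28 dpn, and 4954, 6767 and 8545 at 188 dpn. It rose by 0.99 (SE 0.08, q = 2.03e-12) in period I without overlap and changed by -0.41 (SE 0.08, q = 1.21e-05) in period II, so that its highest level was that of the newborn. TIMM8A rose by 0.81 (SE 0.13, q = 3.42e-07) and likewise changed by -0.47 (SE 0.16, q = 0.0019) in period II. The period II falls of both were no longer called after subtraction of the array median (-0.06 and -0.12).

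TIMM10 and TIMM9, partners in 1 ring, moved in opposite directions in period I. TIMM10 had signals of 564, 729 and 1111 at 94 dpc, 685, 1207 and 2068 at 1 dpn, 1249, 1496 and 1926 at 28 dpn, and 1219, 1770 and 2469 at 188 dpn, and rose by 0.80 (SE 0.13, q = 7.83e-07) in period I and by 1.27 (SE 0.11, q = 1.01e-13) over the whole course. TIMM9 had signals of 1228, 1595 and 1890 at 94 dpc, 602, 1029 and 1376 at 1 dpn, 653, 788 and 1006 at 28 dpn, and 601, 732 and 1001 at 188 dpn. It fell by 0.54 (SE 0.09, q = 2.13e-06) in period I, and its fetal arrays lay above all arrays of 28 and of 188 dpn, with a change of -1.06 (SE 0.08, q = 1.34e-15) over the whole course. The fall of TIMM9 was also called on both other scales in these comparisons, although over the whole course it came to -0.41 with array medians subtracted. TIMM10B, a relative bound to the TIM22 complex, rose by 0.94 (SE 0.10, q = 7.04e-10) in period I and stayed high, with signals of 724, 951 and 1188 at 94 dpc, 1114, 1816 and 2641 at 1 dpn, 1625, 1900 and 2523 at 28 dpn, and 1382, 2121 and 2603 at 188 dpn. TIMM22, the channel of the carrier translocase, rose by 0.29 (SE 0.10, q = 0.0028) in period II, a call that was lost, at a change of 0.23 each time, when the arrays with outlying 3' to 5' differences, or the least correlated array of each stage, were left out. TIMM13 varied too little to enter any test, with stage medians of 2815, 3080, 2747 and 3356.

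**Figure D4:**
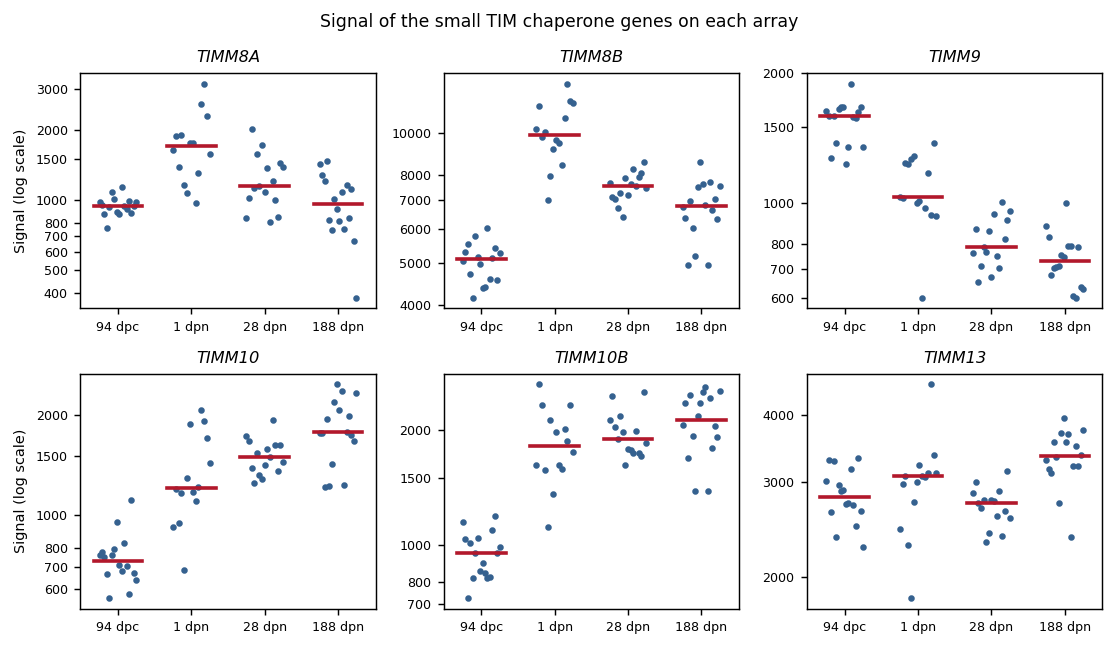
Signal of the 6 small TIM chaperone genes on each of the 61 arrays (points, logarithmic axis) at the 4 stages, with red lines at the stage median. TIMM8A and TIMM8B peak at 1 dpn, TIMM10 and TIMM10B stay up after birth, and TIMM9 steps down from a fetal median of 1595 to 732 at 188 dpn.

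Other genes of the same machinery, which carry other names, moved in part. Among 12 further import genes, 4 were called higher and 2 lower of 10 tested in period I (background 33.9% and 35.4%), 2 higher and 5 lower of 9 in period II (background 33.1% and 39.1%, and 4 higher and 1 lower after subtraction of the array median), and 6 higher and 1 lower of 8 in period III (background 21.6% and 39.0%). GRPEL1, the nucleotide exchange factor of the import motor, rose by 1.00 (SE 0.07, q = 1.28e-13) in period I with no overlap, whereas DNAJC19, a J protein of the inner membrane related to the motor, changed by -0.98 (SE 0.12, q = 9.61e-09). CHCHD4, the oxidoreductase that folds the small TIM proteins, rose by 0.89 (SE 0.13, q = 1.4e-07) and changed by -1.07 (SE 0.13, q = 7.65e-09) in period II, to leave a peak at 1 dpn. ROMO1 rose in all 3 periods, by 0.63, 0.54 and 0.43, the last of which was not called after quantile normalization. PMPCA, a subunit of the peptidase that removes presequences, rose by 0.58 (SE 0.09, q = 1.5e-07) in period II.

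Among 8 mitoribosomal and ribosome assembly genes named otherwise, 2 were called higher and 2 lower of 6 tested in period I (background 33.9% and 35.4%). MALSU1, an assembly factor of the large subunit, rose in periods I, II and III by 0.47, 0.39 and 0.41. PTCD3, a small subunit protein, and RBFA, an assembly factor of the small subunit, changed by -0.60 (SE 0.11, q = 3.56e-06) and -0.44 (SE 0.08, q = 2.02e-06) in period I, and the fall of PTCD3 was not called when its probe-sets were averaged (-0.16). Of 13 mitochondrial translation factors and tRNA synthetases, 2 rose and 2 fell of 9 tested in period I (background 33.9% and 35.4%). TUFM, the elongation factor, was up by 0.57 (SE 0.09, q = 2.12e-07). In period II none rose and 3 fell of 8 tested (background 33.1% and 39.1%). Subtraction of the array median gave 4 rises and no fall there (background 54.5% and 19.2%).

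The 7 genes of mitochondrial DNA expression and biogenesis included more falls than rises. In period I, 1 rose and 4 fell of 7 tested (background 33.9% and 35.4%). Over the whole course none rose and 6 fell of 6 (background 36.8% and 48.0%). Subtraction of the array median gave 1 rise and 4 falls over the whole course (background 60.6% and 24.9%). TFAM, the packaging and transcription factor of mitochondrial DNA, changed by -0.62 (SE 0.15, q = 0.000105) in period I, MYC by -1.32 (SE 0.19, q = 1.3e-07) and the coactivator PPRC1 by -0.68 (SE 0.14, q = 1.62e-05). With the probe-sets of a gene averaged, TFAM (-0.20) and PPRC1 (0.08) were not called. PPARGC1A, a coactivator known for driving mitochondrial biogenesis, changed by -1.33 (SE 0.19, q = 5.04e-08) in period II, and SSBP1, the single-stranded DNA-binding protein of mitochondria, rose by 0.86 (SE 0.11, q = 6.79e-09) in period I and changed by -0.89 (SE 0.11, q = 4.1e-09) in period II. Of 8 matrix chaperones and proteases, 2 rose and 2 fell of 7 tested in period I (background 33.9% and 35.4%). LONP1, the matrix protease, rose by 0.79 (SE 0.09, q = 4.66e-10), while HSPE1 and HSPD1, which form the chaperonin that folds imported proteins, changed by -0.54 (SE 0.10, q = 4.25e-06) and -0.29 (SE 0.12, q = 0.00587), the latter without a call after subtraction of the array median (-0.14).

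The products that the mitoribosome and the import pores help to assemble are the subunits of oxidative phosphorylation, and 59 of their nuclear genes were on the array. In period I 47 of 54 tested were called higher and 3 lower (background 33.9% and 35.4%). The median change was 0.74 over the 59 genes, against 0.35 for the 76 mitoribosomal and import genes. In period II 10 were higher and 20 lower of 37 tested (background 33.1% and 39.1%). This split turned to 31 higher and 6 lower after subtraction of the array median (background 54.5% and 19.2%). It came to 3 higher and 30 lower after quantile normalization (background 38.0% and 34.0%). In period III 17 were higher and 5 lower of 27 tested (background 21.6% and 39.0%). Quantile normalization gave 7 higher and 6 lower of 19 tested, and the share of all named genes on that scale is not given for this period. Subtraction of the array median gave 32 and 2 of 50 tested (background 34.8% and 22.7%). The 63 proteins of the cytosolic ribosome went the other way. In period I 45 of 47 tested were called lower and 1 higher (background 35.4% and 33.9%), with a median change of -0.47. On the other scales 11 of 12 tested (quantile normalization) and 35 of 43 tested (array medians subtracted) were called lower in period I. The share of all named genes called lower was 29.7% and 26.2% on these scales. Over the whole course 49 of 52 tested were lower (background 48.0%). Subtraction of the array median turned this to 23 higher and 11 lower (background 60.6% and 24.9%). The median log2 signal of these genes per array averaged 15.34 ± 0.23 (SD, n = 16) at 94 dpc and 14.82 ± 0.16 (n = 14) at 1 dpn. Whether this difference between the ribosomes of the cytosol and of the mitochondrion exceeds that between other gene groups was not tested. Of 9 genes taken as measures of mitochondrial mass, 4 were tested in period I and rose (background 33.9%), while the median change of all 9 was 0.21. VDAC2, an outer membrane channel, rose by 1.27 (SE 0.10, q = 1.79e-13) and the nucleotide carrier SLC25A4 by 1.27 (SE 0.10, q = 6.07e-13). In period II 1 of the 9 rose and 5 fell, with 6 tested (background 33.1% and 39.1%). Subtraction of the array median gave 2 rises and 3 falls of 8 tested there (background 54.5% and 19.2%). Quantile normalization gave 1 rise and 6 falls of 7 tested (background 38.0% and 34.0%).

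**Figure D5:**
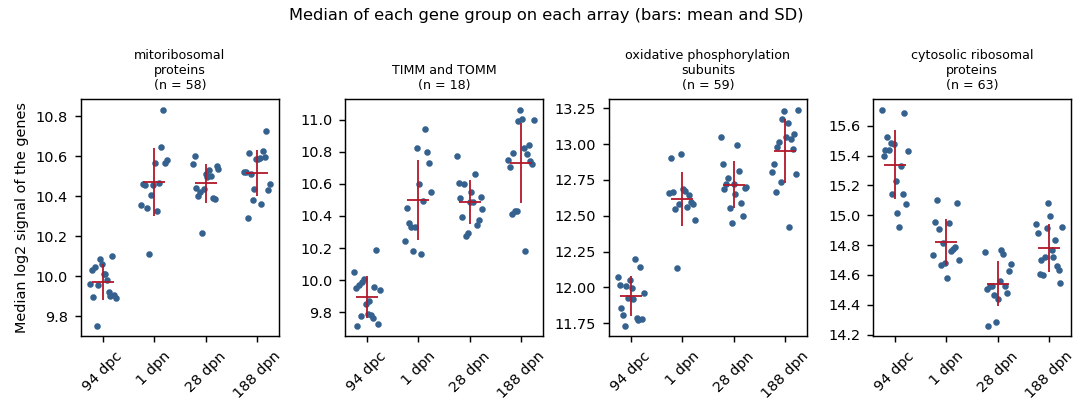
Median log2 signal per array (points, with mean and SD in red) of the 58 mitoribosomal genes, the 18 TIMM and TOMM genes, 59 oxidative phosphorylation subunits and 63 cytosolic ribosomal proteins at the 4 stages. The mitoribosomal median of the 16 fetal arrays reaches 10.10 at most, below all later arrays, while the cytosolic ribosomal proteins are highest at 94 dpc with a mean of 15.34.

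Markers of several cell types changed over the same periods, and whether cell numbers changed cannot be read from them. Of all named genes tested, 33.9% were called higher and 35.4% lower in period I. These shares were 33.1% and 39.1% in period II, and 21.6% and 39.0% in period III. The fetal liver is a site of blood formation, and 5 of 6 erythroid markers fell in period I, with a median change of -2.42 and a summed signal of 2625 to 31437 at 94 dpc, 965 to 4037 at 1 dpn, 1646 to 6433 at 28 dpn and 2750 to 8397 at 188 dpn. Of 7 granulocyte markers 3 fell in period I and 6 in period II, with summed signals of 1911 to 55402, 2340 to 23731, 486 to 2041 and 419 to 2074 at the 4 stages. Of 9 proliferation markers 2 rose in period I, 8 fell in period II and 9 in period III, with summed signals of 3265 to 10976, 4098 to 16770, 1448 to 8815 and 680 to 1169. Of 6 Kupffer cell markers 3 rose and 1 fell in period I, 4 rose in period II, and 1 rose and 5 fell in period III, with summed signals of 3770 to 8232, 9023 to 19050, 32175 to 48966 and 35280 to 50271. Of the 5 T and NK cell markers 4 rose in period II, from sums of 160 to 477 and 100 to 491 before and just after birth to 759 to 4558 at 28 dpn and 945 to 2459 at 188 dpn. The 4 cholangiocyte markers summed to 483 to 1107, 359 to 1810, 178 to 726 and 173 to 533, and the 6 markers of stellate and endothelial cells to 4480 to 11411, 4036 to 11119, 4165 to 8742 and 5404 to 12281. No marker sum was at 0. The part of these cells in the changes of the mitochondrial genes was not tested.

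Genes with several probe-sets were not always read alike. MRPL33 was called higher in period I by the brighter probe-set (0.36) and lower by the other (-0.56). MRPL43 was called higher in period II by the brighter one (0.50) and lower by the other (-0.37), and MRPS2 likewise (0.36 and -0.90). MRPS2 was also read both ways over the whole course (0.73 and -0.69), so the direction of these genes in those comparisons is uncertain. When the probe-sets of a gene were averaged, the rises over the whole course of MRPL38 and TIMM10B came to 0.31 and 0.35 and were not called, and neither were the changes of MRPL35 in periods I and II. In MRPL38 and TIMM10B the other probe-set was so dim that it passed no filter. MRPS11 and MRPL46, which lie next to each other in the RefSeq gene order of the pig genome (assembly Sscrofa11.1), both rose in period I, by 0.69 (SE 0.09, q = 1.47e-08) and 0.47 (SE 0.09, q = 4.88e-06).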

How the data were processed

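Total RNA of individual livers was hybridised to the Affymetrix porcine genome array. The deposited values are linear signal intensities per probe-set on 61 arrays, which the authors made with GCOS 1.1.1 according to the submitters' processing notes, scaled so that the trimmed mean was the same on every array. The study's methods name GC-RMA for its own tests, and detection calls are not used here. Array values give no read depth, so the number of arrays limits the precision. Of 23999 probe-sets without controls, 10069 carried 1 gene symbol in the platform annotation, 198 several and 13732 none.

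Signals were log2-transformed and compared between stages with limma 3.58.1 in R 4.3.3, with stage as the only term and the arrays of both stages only. A probe-set was tested if it exceeded the array median on at least 50% of the arrays of either stage and its SD over both was above 0.25, as a substitute for the study's detection filter. P values and Storey q values over all tested probe-sets were taken at 0.05, two-sided. The SD filter favours probe-sets that differ, so counts are given over tested genes beside the same share of all genes. The fits were tested on simulated data. Named were all TIMM and TOMM genes, the 6 largest called rises and falls among the ribosomal genes in each comparison, the widest and narrowest courses, the brightest and dimmest genes, and the 3 largest called changes in each pathway list. MRPL4, MRPL33, MRPL46 and MRPS11 were chosen after their values were seen. Genes and lists were chosen with earlier results of these data known. Alternatives covered scale, filters, adjustment, fit, floor, weights, arrays left out and probe-set choice. Figures were drawn with matplotlib 3.10.9. Protein and promoter sequences, and motif counts in promoters, are not analysed here. Of the 76 genes 75 had an entry in the RefSeq gene table of assembly Sscrofa11.1, which served for names and gene order only.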

Additional observations from a re-analysis of the deposited data

How the results depend on the processing

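In period I the 41 rises and the 6 falls stayed within 1.5 times these counts under all 15 alternatives. Subtraction of the array median moved most of what follows, and by construction it adds the fall of the array median to every later stage. The median change of the 76 genes became 0.49 in period I, 0.26 in period II, 0.21 in period III and 0.84 over the whole course. The counts became 38 higher and 4 lower in period II, 34 higher in period III, and 64 higher and 8 lower over the whole course. Without the SD filter 21 genes were called lower in period III.

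Turns of direction are listed and counted here only where the change was called in the main setting or in the alternative. On that scale several such changes of period II turned positive, namely MRPL15 (0.018), MRPL38 (0.35), MRPL52 (0.31), MRPS10 (0.056), MRPS22 (0.027), MRPS25 (0.31), TIMM13 (0.22), TIMM44 (0.069) and TOMM7 (0.30). Over the whole course MRPL13 (0.60), MRPL19 (0.12), MRPL3 (0.62), MRPL35 (0.39), MRPL45 (0.64), MRPL53 (0.51), MRPS12 (0.34), MRPS22 (0.50), MRPS23 (0.52) and TIMM8A (0.64) did so. Quantile normalization turned the whole course changes of MRPS12 (0.024), MRPS23 (0.44) and TIMM8B (-0.058). Averaging a gene's probe-sets turned TIMM44 (0.43), MRPL33 (-0.097) and PPRC1 (0.079) in period I, MRPS2 in period II (-0.27) and MRPL38 in period III (-0.29). Apart from the scale, the cause of these turns was not tested. For 233 changes of named genes under these alternatives there were 3495 values. Of these, 3333 kept their call status, 70 gained and 65 lost the call, and 27 turned. The 3333 include changes called in neither setting, whose direction was not compared. No paired analysis was possible because the labels give no litter and the groups compared share no replicate numbers. The array number, signals near the array median (MRPS23, MRPS36, TOMM34, TOMM70) and unknown littermates limit the precision.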
